A study of Homo sapiens with 31 samples.

Results

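The 5 transcripts described here encode the core of the CDK2 kinase system: CCNE1 (cyclin E1), CCNE2 (cyclin E2), CCNA2 (cyclin A2), CDK2 and CDC25A. They were taken by gene name, 5 of the 56269 names counted, and all 5 passed the filter on low counts, as did 15787 names in all. RNA came from MCF10A, 1 human mammary epithelial line, non-transformed, whose cells enter quiescence when growth factors are withdrawn. In every group the cells had first been starved of serum, EGF and insulin for 2 to 3 days. The 0 h group was taken at the end of starvation with no drug treatment. The other groups were released into full growth medium holding either 0.1% DMSO, the vehicle, for 3, 6, 9, 12, 15 or 24 h, or 1 µM palbociclib for 9, 12, 15 or 24 h. Palbociclib inhibits CDK4 and CDK6, the kinases of the D cyclins. Each of the 11 groups had 3 libraries, except both 24 h groups with 2 (replicates 1 and 3), which gives 31 libraries. The labels do not say that replicates were separate cultures, and the p-values given here therefore reflect library-to-library spread that may be technical.

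In the textbook account, growth factors induce D cyclins, and CDK4 and CDK6 begin to phosphorylate the retinoblastoma protein, which releases E2F transcription factors. E2F then drives transcription of cyclin E and other genes for DNA synthesis, and cyclin E bound to CDK2 phosphorylates the retinoblastoma protein further. Cyclin A2 takes over as the CDK2 partner in S phase and later binds CDK1. CDC25A is a phosphatase that removes inhibitory phosphates from CDK2, such as those placed there by WEE1. The design asks when each of these transcripts changes as cells leave quiescence and which changes need CDK4/6 activity.

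Since the members all rose between 6 and 15 h of release with DMSO, promoter sequences are shown for CCNE1, CCNA2 and CDC25A. They were matched by symbol in the RefSeq table (GRCh38.p14). No sequence is shown for CCNE2 or CDK2. Each sequence is the 250 bases before the RefSeq start, 5′ to 3′ on the gene's strand, and capitals mark every match to the motifs searched. For CCNE1 and CCNA2 the RefSeq start lies inside the GENCODE gene span given below, so these windows reach into that span.
CCNE1, chr19:29811741-29811990, plus strand: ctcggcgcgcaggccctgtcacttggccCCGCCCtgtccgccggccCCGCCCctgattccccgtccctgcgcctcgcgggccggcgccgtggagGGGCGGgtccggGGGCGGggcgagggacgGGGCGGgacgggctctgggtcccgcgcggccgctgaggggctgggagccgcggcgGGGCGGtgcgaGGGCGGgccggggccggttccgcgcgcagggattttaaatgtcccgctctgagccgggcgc
CCNA2, chr4:121823884-121824133, minus strand: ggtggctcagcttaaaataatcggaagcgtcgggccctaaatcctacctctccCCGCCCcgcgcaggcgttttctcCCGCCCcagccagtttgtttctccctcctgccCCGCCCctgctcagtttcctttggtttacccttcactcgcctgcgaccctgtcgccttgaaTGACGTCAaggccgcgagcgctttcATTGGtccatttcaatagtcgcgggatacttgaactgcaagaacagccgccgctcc
CDC25A, chr3:48188418-48188667, minus strand: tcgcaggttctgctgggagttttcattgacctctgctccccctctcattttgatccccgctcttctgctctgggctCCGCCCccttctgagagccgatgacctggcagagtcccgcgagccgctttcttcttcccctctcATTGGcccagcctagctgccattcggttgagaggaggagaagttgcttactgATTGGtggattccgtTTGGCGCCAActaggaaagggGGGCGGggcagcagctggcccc

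The letters searched on both strands were TTCCCGC or TTCGCGC or TTGCCGC or TTGGCGC for E2F; TTTGAA or TTCGAA for the CHR; CCAAT for the CCAAT box; GGGCGG for the GC box, bound by SP1; TGACGTCA or TGACGTAA for CRE, the cAMP response element; TGACTCA or TGAGTCA for AP-1; CACGTG for the E-box, and GTAAACA for forkhead factors. CDC25A held 2 overlapping E2F matches, 1 on each strand, at 43 to 37 and 40 to 34 bases before the start, along with 2 CCAAT boxes and 2 GC boxes. CCNA2 held a CRE at 81 to 74 bases before the start, a CCAAT box at 56 to 52 and 3 GC boxes. CCNE1, at 81.2% G and C, held 7 GC boxes and no match to the other motifs. Of 35116 RefSeq promoters of the same length, 10.9% held an E2F match, 14.3% a CHR, 32.0% a CCAAT box, 42.6% a GC box, 2.0% a CRE, 4.2% an AP-1 match, 6.34% an E-box and 2.98% a forkhead match. These matches describe letters in the window and are no measure of binding.

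Library totals ran from 10342358 to 20878364 counts, with replicate 2 the deepest of the 3 numbers (16631098 to 20878364). The 7 markers chosen for MCF10A, among them KRT5, TP63 and CDH1, were detected in every library, the lowest value being 37.7 CPM for KRT14. PTPRC (10 counts in all 31 libraries), CD3E (2), CDH5 (10) and PGR (1) were at or near 0, while the fibroblast markers COL1A1 (10.7 to 29.3 CPM) and DCN (3.70 to 58.0 CPM) and, at low levels, PECAM1 and ESR1 were present. The third replicates of the 24 h DMSO group and of all palbociclib groups scored with the opposite sign to replicate 3 of 0 h and DMSO 3 to 15 h on the main axis of variation within groups (7.84 to 27.2 against −18.5 to −7.51), so values without those 5 libraries are given where a call was lost. Scores were centred within groups, so the 2 libraries of a 24 h group score equal and opposite by construction. The axis does not show these 5 libraries to be outliers: palbociclib 15 h replicate 1 scored −31.6, against 27.2 for replicate 3. In bulk RNA, fewer cells that express a gene and less RNA per cell cannot be told apart.

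Positions are those of GENCODE 25 on GRCh38, the annotation named in the file headers. Reads were counted without strand and ambiguous reads were dropped. A read lying wholly or partly in exonic bases shared with another gene was thus given to neither, and the overlapped members lost reads. Levels are CPM, counts per 1000000 counts of a library total scaled with TMM factors. Per-library values are given in the order of replicates 1, 2 and 3 (1 and 3 at 24 h), each followed by the mean ± SD. Log2 fold changes, their standard errors (SE) and adjusted p-values are from edgeR's quasi-likelihood test with Benjamini-Hochberg adjustment over the 15787 genes, and a change was called at an adjusted p below 0.05. Comparisons with 0 h share the 0 h libraries.

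CCNE1, the cyclin that activates CDK2 late in G1, rose in 2 waves after release with DMSO. The gene lies on chromosome 19, 29811898 to 29824308, plus strand, with 2550 exonic bases and none shared. At 0 h it measured 2.62, 3.63 and 2.33 CPM (2.86 ± 0.686, n = 3), and at 3 h 7.67, 8.27 and 6.09 (7.34 ± 1.13), so every 3 h library lay above every 0 h library. By 6 h the level was back at 3.27, 3.13 and 3.32 CPM (3.24 ± 0.0981). The rise to 3 h was 1.37 ± 0.17 (SE) on the log2 scale (adjusted p = 4.1e-08), and the level then fell by 1.20 ± 0.17 from 3 to 6 h (adjusted p = 5.0e-07). At 6 h it did not pass the test against 0 h (0.17 ± 0.20, adjusted p = 0.449, 95% interval −0.24 to 0.58). The second rise began at 9 h with 5.93, 7.61 and 6.62 CPM (6.72 ± 0.844), and went on at 12 h with 15.5, 12.4 and 13.8 (13.9 ± 1.54). The highest group was DMSO 15 h with 20.9, 22.8 and 20.25 CPM (21.3 ± 1.33), a level 7.42-fold that at 0 h. At 24 h the level was 15.1 and 14.8 CPM (14.9 ± 0.178), lower than at 15 h by 0.52 ± 0.14 (adjusted p = 0.0050), a call that was lost without DMSO 24 h replicate 3 (−0.51, adjusted p = 0.0526) and without the 5 libraries (−0.51, adjusted p = 0.0536).

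With palbociclib CCNE1 measured 3.06, 2.38 and 2.94 CPM at 9 h (2.79 ± 0.365). The 12 h libraries held 4.10, 3.94 and 3.21 CPM (3.75 ± 0.476), and the 15 h libraries 4.18, 6.35 and 3.85 (4.79 ± 1.36). At 24 h both palbociclib libraries stood higher, at 8.14 and 7.55 CPM (7.85 ± 0.419). The palbociclib libraries lay below all DMSO libraries of the same time at each of the 4 times. In the order of its 11 group means, DMSO 15 h stood alone at the top, DMSO 24 h and 12 h overlapped, palbociclib 24 h overlapped DMSO 3 h, and 0 h and palbociclib 9 h overlapped at the bottom.

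CCNE2, the other E-type cyclin and a CDK2 partner like CCNE1, was low until 6 h and had no called rise at 3 h. It lies on chromosome 8, 94879770 to 94896678, minus strand, and of its 4397 exonic bases 37.1% are shared, nearly all with INTS8 on the opposite strand. INTS8 itself was not called between palbociclib and DMSO at any of the 4 times (adjusted p 0.309 to 0.967). In DMSO it was lower than at 0 h at 3 h (−0.44, adjusted p = 1.9e-06) and 6 h (−0.54, adjusted p = 3.0e-08). From 6 to 9 h it rose (0.49, adjusted p = 1.5e-06), and its part in the CCNE2 values was not tested. The CCNE2 level was 0.720, 0.807 and 1.07 CPM at 0 h (0.867 ± 0.185, 43 counts in 3 libraries) and 1.5, 0.698 and 0.930 at 3 h (1.04 ± 0.413), and the groups overlapped (0.19 ± 0.33, adjusted p = 0.621, 95% interval −0.48 to 0.87). At 6 h it was 0.545, 0.289 and 0.463 CPM (0.432 ± 0.131, 19 counts in 3 libraries). That was lower than at 0 h by 1.07 ± 0.39 (adjusted p = 0.0140) and lower than at 3 h by 1.27 ± 0.39 (adjusted p = 0.0060), but with so few counts single libraries decided both calls. Without 0 h replicate 3 or DMSO 6 h replicate 2, the fall from 0 h was no longer called (−0.89, adjusted p = 0.0706, and −0.78, adjusted p = 0.115). Without DMSO 3 h replicate 1 or DMSO 6 h replicate 2, the fall from 3 h was no longer called (−0.94, adjusted p = 0.0627, and −0.97, adjusted p = 0.0636). The step from 6 to 9 h was the steepest of the 5 members: 5.79, 5.53 and 4.26 CPM at 9 h (5.19 ± 0.821), 12.6-fold the 6 h level (3.65 ± 0.28 on the log2 scale, adjusted p = 7.5e-12). The level went on to 12.5, 13.9 and 11.3 CPM at 12 h (12.6 ± 1.30) and 20.3, 22.9 and 18.4 at 15 h (20.5 ± 2.27), 23.4-fold that at 0 h. It then fell to 10.3 and 9.57 CPM at 24 h (9.95 ± 0.543), a fall by 1.05 ± 0.16 on the log2 scale (adjusted p = 6.7e-06).

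Under palbociclib CCNE2 stayed low, with 3 to 16 counts per library. Its group means lay below that of starved cells at every time, a difference called only at 12 h. It measured 0.299, 0.827 and 0.615 CPM at 9 h (0.580 ± 0.266), and the 12 h libraries held 0.246, 0.548 and 0.488 (0.427 ± 0.160). Those of 15 h held 0.682, 0.328 and 0.756 CPM (0.589 ± 0.229), those of 24 h 0.568 and 0.755 (0.662 ± 0.132). The 4 DMSO groups from 9 to 24 h were separate from each other and from all other groups, while the 7 lower groups, including 0 h and all palbociclib groups, each overlapped their neighbour in the order of means.

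CCNA2, the S phase and G2 partner of CDK2 and CDK1, fell first and was the last of the 5 to be called above its 0 h level. It lies on chromosome 4, 121816444 to 121823933, minus strand, and 9.08% of its 2798 exonic bases are shared with EXOSC9 on the opposite strand. Starved cells held 7.85, 7.21 and 6.03 CPM (7.03 ± 0.925), more than at 3 h with 2.08, 1.13 and 2.87 (2.03 ± 0.874) or at 6 h with 1.25, 1.25 and 1.00 (1.17 ± 0.141). The fall from 0 h was by 1.88 ± 0.20 on the log2 scale at 3 h (adjusted p = 9.9e-10) and by 2.56 ± 0.21 at 6 h (adjusted p = 2.9e-12). Between 3 and 6 h the groups overlapped, and the further fall by 0.69 ± 0.29 (adjusted p = 0.0402) was lost without DMSO 3 h replicate 1 (−0.64, adjusted p = 0.0964), DMSO 3 h replicate 3 (−0.36, adjusted p = 0.327) or any 1 of the 3 DMSO 6 h libraries (−0.76 to −0.60, adjusted p 0.0590 to 0.104), and without the 5 libraries (−0.64, adjusted p = 0.0624). At 9 h CCNA2 measured 2.07, 2.49 and 2.52 CPM (2.36 ± 0.254), above 6 h by 1.00 ± 0.27 (adjusted p = 0.0038) but still below 0 h. It passed the starved level at 12 h with 11.9, 10.1 and 11.3 CPM (11.1 ± 0.926), reached 34.5, 38.6 and 29.25 at 15 h (34.1 ± 4.69), and 183 and 174 at 24 h (178 ± 6.26). From its lowest group mean to its highest it moved 153-fold, the widest range of the 5 members, and it was the only one called higher at 24 h than at 15 h (2.38 ± 0.11, adjusted p = 1.7e-17).

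With palbociclib CCNA2 remained low, with 1.94, 1.60 and 1.64 CPM at 9 h (1.73 ± 0.187). The 12 h libraries held 1.15, 1.65 and 2.30 CPM (1.70 ± 0.578), and the 15 h libraries 1.53, 1.81 and 1.51 (1.62 ± 0.164), so these 3 groups overlapped. At 24 h it was 3.12 and 2.68 CPM (2.90 ± 0.317), less than in starved cells. EXOSC9, the overlapping gene, was lower with palbociclib at 12, 15 and 24 h by −0.45, −0.76 and −0.997 on the log2 scale, and its part in the CCNA2 values was not tested. MKI67 and TOP2A, markers of dividing cells, ranged over 1.53 to 885.6 and 1.40 to 630.7 CPM across the 31 libraries.

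CDK2, the catalytic kinase itself, had the narrowest range, 5.26-fold between its lowest and highest group mean, and was expressed in starved cells. It lies on chromosome 12, 55966769 to 55972784, plus strand, and 16.8% of its 3894 exonic bases are shared with PMEL and RP11-973D8.4 on the opposite strand. Its level was 12.3, 13.9 and 10.9 CPM at 0 h (12.4 ± 1.49). The 3 h libraries held 17.6, 19.2 and 18.25 CPM (18.3 ± 0.799), and the 6 h libraries 18.75, 21.8 and 17.5 (19.3 ± 2.18). The 3 h libraries all lay above the 0 h libraries (0.57 ± 0.09 on the log2 scale, adjusted p = 1.7e-06), and the 6 h libraries overlapped those at 3 h (0.09 ± 0.09, adjusted p = 0.411, 95% interval −0.09 to 0.26). It then rose at each step, first to 26.8, 28.35 and 25.9 CPM at 9 h (27.02 ± 1.25). The 12 h libraries held 50.5, 49.0 and 46.8 CPM (48.75 ± 1.87), and the 15 h libraries 67.1, 67.8 and 60.4 (65.1 ± 4.11), with no overlap between these times. At 24 h it was 49.1 and 48.7 CPM (48.9 ± 0.303), below 15 h by 0.41 ± 0.08 (adjusted p = 0.00012) and overlapping 12 h.

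With palbociclib CDK2 moved little, from 20.6, 21.1 and 21.25 CPM at 9 h (21.0 ± 0.325). The 12 h libraries held 22.3, 22.3 and 20.8 CPM (21.8 ± 0.878), those of 15 h 23.1, 21.0 and 23.0 (22.35 ± 1.21), and those of 24 h 16.7 and 19.5 (18.1 ± 2.00). Every palbociclib library held more CDK2 than every 0 h library and less than every DMSO library from 9 h on.

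CDC25A, the activating phosphatase, rose from the first time point and had no dip. It lies on chromosome 3, 48157146 to 48188402, minus strand, with 4117 exonic bases and none shared. It measured 3.60, 3.40 and 2.09 CPM at 0 h (3.03 ± 0.821). The 3 h libraries held 7.09, 8.43 and 9.38 CPM (8.30 ± 1.15), and those of 6 h 10.2, 11.3 and 8.57 (10.0 ± 1.38). The rise to 3 h was 1.46 ± 0.17 on the log2 scale (adjusted p = 6.6e-09), while 3 and 6 h overlapped (0.29 ± 0.14, adjusted p = 0.0776, 95% interval −0.0024 to 0.58). Levels went on to 16.6, 17.1 and 15.45 CPM at 9 h (16.4 ± 0.860). By 12 h the libraries held 41.6, 41.85 and 45.4 CPM (43.0 ± 2.12), and by 15 h 57.6, 59.3 and 50.7 (55.9 ± 4.55), again with no overlap between these times. The step from 12 to 15 h was small (0.38 ± 0.10, adjusted p = 0.0114) and was lost without DMSO 12 h replicate 1 or 2 (0.36, adjusted p = 0.0619, and 0.36, adjusted p = 0.0623) or DMSO 15 h replicate 1 or 2 (0.36, adjusted p = 0.0516, and 0.34, adjusted p = 0.0886). At 24 h CDC25A stood at 53.6 and 54.6 CPM (54.1 ± 0.707) and overlapped 15 h (−0.05 ± 0.11, adjusted p = 0.781, 95% interval −0.27 to 0.18), whereas both E cyclins and CDK2 had fallen from 15 h.

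With palbociclib CDC25A measured 7.40, 5.38 and 6.63 CPM at 9 h (6.47 ± 1.02). The 12 h libraries held 6.55, 4.69 and 4.67 CPM (5.30 ± 1.08), those of 15 h 6.56, 6.08 and 5.04 (5.89 ± 0.776), and those of 24 h 11.6 and 10.6 (11.1 ± 0.712). All of these libraries lay above the 0 h libraries and below the DMSO libraries of the same time.

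**Figure D1:**
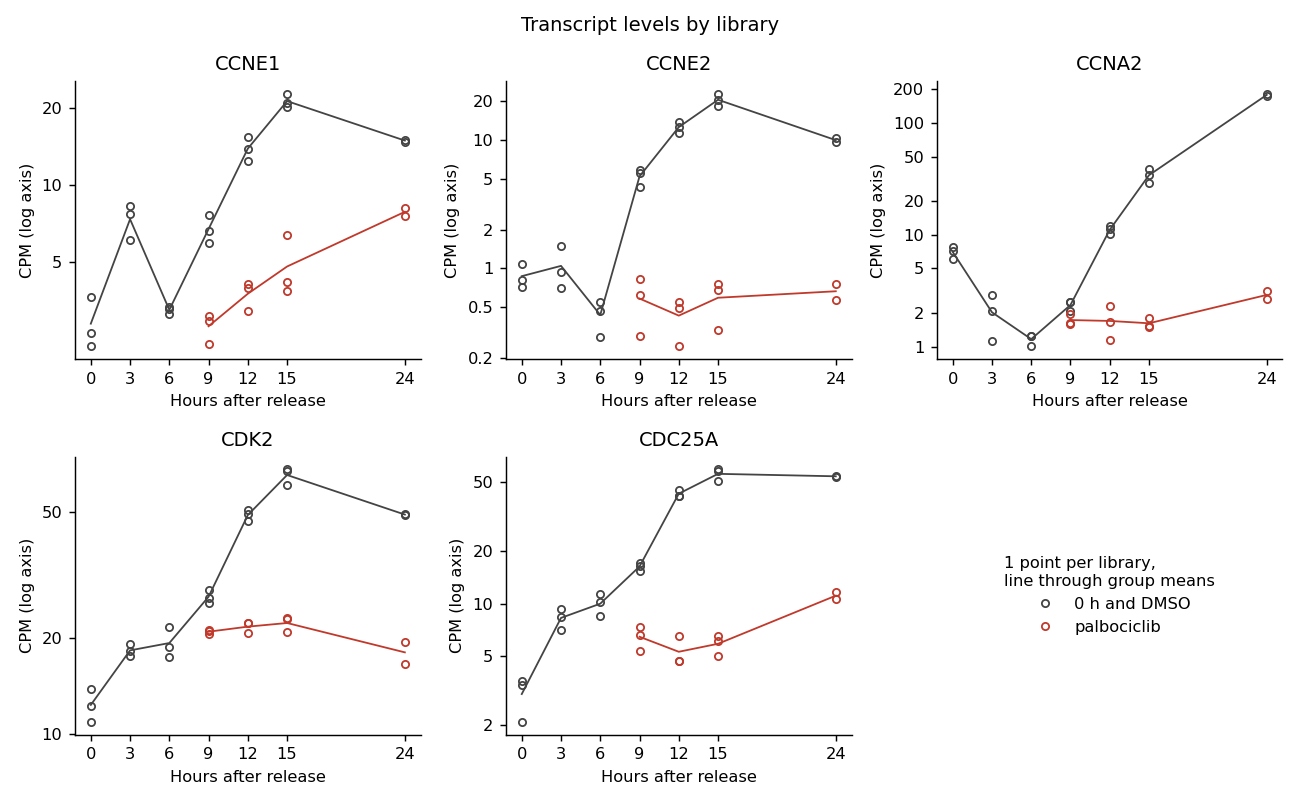
Transcript level (CPM, log axis) against hours after release, 1 panel per gene, 1 point per library and a line through group means, with 0 h and DMSO in dark grey and palbociclib in red. CCNE1 has an early peak at 3 h, and CCNA2 in DMSO rises from 1.17 CPM at 6 h to 178 CPM at 24 h while its highest palbociclib library is at 3.12 CPM.

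Counted together against 0 h, 3 members were higher and 1 lower at DMSO 3 h, 2 higher and 2 lower at 6 h, 4 higher and 1 lower at 9 h, and all 5 higher at 12, 15 and 24 h. For all genes tested, the share called higher rose from 27.8% (3 h) and 34.0% (6 h) through 35.3% (9 h) and 36.1% (12 h) to 37.4% (15 h) and 36.7% (24 h). Lower calls made up 34.4%, 39.5%, 39.9%, 39.6%, 39.3% and 38.9% at these times. With library totals as the scale, genes called at 3 h were 3466 higher and 7257 lower, against 4393 and 5433 with TMM factors. With most genes called, a call against 0 h says little by itself, and the order and size of the changes carry the description. The largest change at 3 h was the fall of CCNA2 (−1.88), and the largest rise that of CDC25A (1.46). CCNE2 had the largest rise at 9, 12 and 15 h (2.58 ± 0.23, 3.84 ± 0.21 and 4.55 ± 0.20) and CCNA2 at 24 h (4.67 ± 0.13). At 12 h CDC25A (3.82 ± 0.14) and CCNE2 differed by less than their SE.

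Between neighbouring DMSO times, none of the 5 rose and 3 fell from 3 to 6 h, when 27.8% of all genes were called higher and 29.8% lower (4388 and 4705 genes, or 5443 and 3897 with library totals, where CDK2 and CDC25A were also called higher). All 5 rose from 6 to 9 h (18.1% of genes called higher, 16.6% lower), from 9 to 12 h (9.07% and 6.12%) and from 12 to 15 h (5.03% and 1.98%). From 15 to 24 h CCNA2 rose and CCNE1, CCNE2 and CDK2 fell, with 16.5% of genes called higher and 13.0% lower. The members' concerted rise thus fell in the window from 6 to 15 h, and they parted before and after it.

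**Figure D2:**
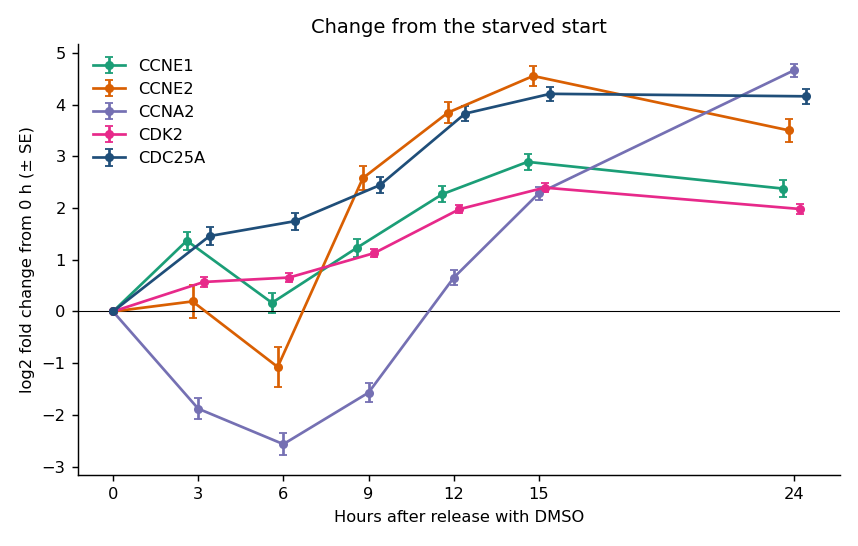
Log2 fold change from 0 h (± SE) against hours after release with DMSO for the 5 genes, points shifted sideways for legibility. CCNA2 falls to −2.56 at 6 h and ends at 4.67, CCNE1 shows a peak of 1.37 at 3 h, and both E cyclins and CDK2 lie lower at 24 h than at 15 h.

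Palbociclib lowered 4 of the 5 transcripts at 9 h and all 5 at 12, 15 and 24 h relative to DMSO at the same time, and raised none. For all genes tested the shares called lower were, in the order of these times, 1.08%, 4.81%, 8.79% and 12.3%, and the shares called higher 0.114%, 0.830%, 2.15% and 5.76%. CCNE2 showed the largest difference at 9, 12 and 15 h. It was 8.50-fold lower at 9 h (−3.09 ± 0.25 on the log2 scale, adjusted p = 2.3e-10), 27.6-fold at 12 h (−4.79 ± 0.24, adjusted p = 1.9e-16), 35.7-fold at 15 h (−5.16 ± 0.22, adjusted p = 1.3e-18) and 14.6-fold at 24 h (−3.86 ± 0.30, adjusted p = 3.8e-12). Ordered by log2 fold change from the lowest of 15787 genes, its rank was 24, 22, 40 and 109 at 9, 12, 15 and 24 h. The palbociclib side of these values rests on 3 to 16 counts per library.

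CCNE1, measured in the same libraries, was 2.45-fold lower at 9 h (−1.29 ± 0.18, adjusted p = 9.1e-06), 3.69-fold at 12 h (−1.88 ± 0.15, adjusted p = 3.3e-11), 4.38-fold at 15 h (−2.13 ± 0.14, adjusted p = 1.6e-13) and 1.91-fold at 24 h (−0.93 ± 0.17, adjusted p = 0.00014). CCNA2 went from the second smallest difference to the largest. At 9 h, where DMSO cells themselves held little CCNA2, the libraries did not overlap but the difference was not called (−0.46 ± 0.24, adjusted p = 0.554, 95% interval −0.97 to 0.05). It was then 6.41-fold lower at 12 h (−2.68 ± 0.18, adjusted p = 4.4e-13), 20.9-fold at 15 h (−4.38 ± 0.16, adjusted p = 3.4e-20) and 62.0-fold at 24 h (−5.95 ± 0.17, adjusted p = 1.1e-22).

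CDK2 had the smallest difference of the members called at 9, 12 and 15 h, and CCNE1 at 24 h. CDK2 was 1.29-fold lower at 9 h (−0.37 ± 0.08, adjusted p = 0.0078), 2.24-fold at 12 h (−1.16 ± 0.08, adjusted p = 1.3e-13), 2.92-fold at 15 h (−1.55 ± 0.08, adjusted p = 3.4e-17) and 2.69-fold at 24 h (−1.43 ± 0.10, adjusted p = 2.3e-13). Its 9 h call was lost without DMSO 9 h replicate 2 (−0.33, adjusted p = 0.0846), without palbociclib 9 h replicate 1 (−0.35, adjusted p = 0.0568) or without the 5 libraries (−0.37, adjusted p = 0.0521). CDC25A was 2.58-fold lower at 9 h (−1.37 ± 0.13, adjusted p = 1.1e-08), 8.23-fold at 12 h (−3.04 ± 0.13, adjusted p = 1.9e-18), 9.54-fold at 15 h (−3.25 ± 0.12, adjusted p = 6.1e-20) and 4.87-fold at 24 h (−2.29 ± 0.14, adjusted p = 1.9e-14).

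**Figure D3:**
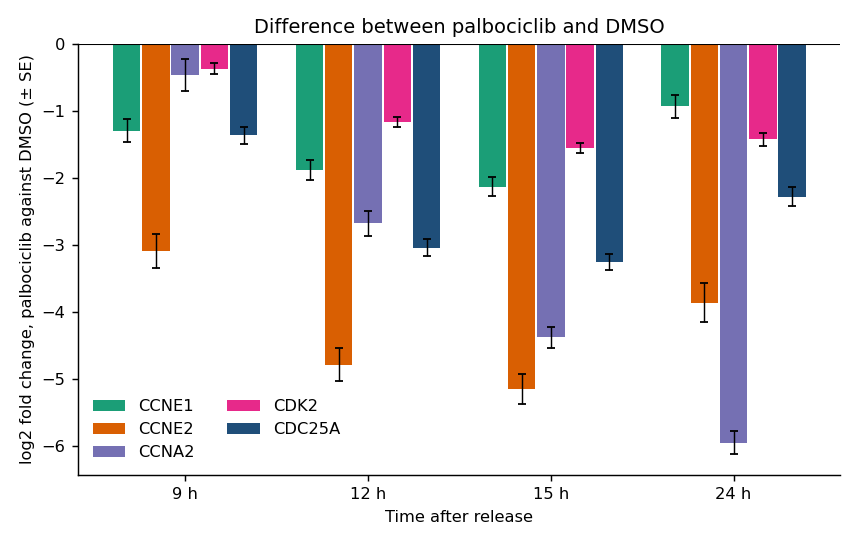
Log2 fold change of palbociclib against DMSO (bars, ± SE) for the 5 genes at 9, 12, 15 and 24 h. CCNE2 has the longest bar from 9 to 15 h (−3.09, −4.79 and −5.16), CCNA2 at 24 h (−5.95), and the CCNE1 and CDC25A bars are shorter at 24 h than at 15 h.

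The size of the palbociclib difference changed with time, tested as an interaction in the same fit. From 9 to 12 h the difference grew for CCNA2 (−2.22 ± 0.32, adjusted p = 2.5e-05), CCNE2 (−1.70 ± 0.44, adjusted p = 0.0369), CDC25A (−1.68 ± 0.19, adjusted p = 4.7e-07) and CDK2 (−0.80 ± 0.11, adjusted p = 1.1e-05), when 1.72% of all genes were called lower and 0.0190% higher in this test. The CCNE2 call was fragile: it was lost on leaving out DMSO 9 h replicate 3, DMSO 12 h replicate 1 or 2, palbociclib 9 h replicate 2 or 3, or any of the 3 palbociclib 12 h libraries (−1.95 to −1.31, adjusted p 0.0524 to 0.614), and without the 5 libraries (−1.75, adjusted p = 0.243). CCNE1 was not called there (−0.59 ± 0.24, adjusted p = 0.519). From 12 to 15 h the difference grew for CCNA2 alone among the members (−1.70 ± 0.30, adjusted p = 0.0014, with 0.633% of genes called lower and 0.00633% higher), a call lost without the 5 libraries (−1.41, adjusted p = 0.154). From 15 to 24 h it shrank for CCNE1 (1.20 ± 0.23, adjusted p = 0.0013) and CDC25A (0.97 ± 0.20, adjusted p = 0.0025) and grew for CCNA2 (−1.57 ± 0.30, adjusted p = 0.0014), with 1.06% of genes called higher and 1.92% lower. These 3 calls were lost without the 5 libraries (1.07, 0.93 and −1.56, adjusted p 0.101, 0.120 and 0.0597).

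Against starved cells, palbociclib-treated cells still changed some of the members. CDK2 and CDC25A were higher than at 0 h at all 4 palbociclib times (CDK2 0.55 to 0.85, CDC25A 0.78 to 1.87 on the log2 scale), and CCNA2 was lower at all 4 (−2.10 to −1.29). CCNE1 was indistinguishable from 0 h at 9 h (−0.06 ± 0.20, adjusted p = 0.802, 95% interval −0.48 to 0.36), was not called at 12 h (0.38 ± 0.19, adjusted p = 0.0690), and was higher at 15 h (0.76 ± 0.18, adjusted p = 0.00041) and 24 h (1.44 ± 0.19, adjusted p = 7.8e-08). The 12 h value was called without 0 h replicate 2 (0.60, adjusted p = 0.0120), without palbociclib 12 h replicate 3 (0.48, adjusted p = 0.0401) and without the 5 libraries (0.58, adjusted p = 0.0160).

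CCNE2 was not called higher than at 0 h at any palbociclib time (−0.94 to −0.36). At 24 h its 95% interval against 0 h was −1.23 to 0.50, which leaves out the change seen for CCNE1. At 12 h it was called lower (−0.94 ± 0.38, adjusted p = 0.0254), a call lost without 0 h replicate 3 (−0.76, adjusted p = 0.113), without palbociclib 12 h replicate 1 (−0.73, adjusted p = 0.100) and without the 5 libraries (−0.90, adjusted p = 0.0813). The members called higher than at 0 h numbered 2, 2, 3 and 3 in the order of the 4 times, against 34.9%, 35.0%, 35.1% and 34.3% of all genes. Those called lower numbered 1, 2, 1 and 1, against 40.8%, 40.4%, 39.9% and 36.9% of all genes.

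Within the palbociclib series none of the 5 was called from 9 to 12 h, with 5.22% of all genes called higher and 6.71% lower, or from 12 to 15 h, with 1.38% and 1.59%. CCNE1 alone had an unadjusted p below 0.05 in edgeR's test in each of these steps (0.44 ± 0.19 and 0.38 ± 0.18), and DESeq2 called none either. From 15 to 24 h CDC25A rose by 0.92 ± 0.16 (adjusted p = 9.1e-05), CCNA2 by 0.81 ± 0.28 (adjusted p = 0.0361) and CCNE1 by 0.68 ± 0.18 (adjusted p = 0.0064), and CDK2 fell by 0.29 ± 0.10 (adjusted p = 0.0282), with 11.2% of genes called higher and 9.31% lower. CCNE2 was not called (0.24 ± 0.45, adjusted p = 0.776). Apart from CDC25A, these calls rested on single libraries. The CCNE1 call was lost without palbociclib 15 h replicate 3 (0.52, adjusted p = 0.0517) or palbociclib 24 h replicate 1 (0.63, adjusted p = 0.0556), and without the 5 libraries (0.57, adjusted p = 0.168). The CCNA2 call was lost without any 1 of the libraries of these 2 groups (0.71 to 0.90, adjusted p 0.0573 to 0.180), and the CDK2 call without palbociclib 15 h replicate 1 (−0.29, adjusted p = 0.0552) or 3 (−0.28, adjusted p = 0.0774) or palbociclib 24 h replicate 1 (−0.19, adjusted p = 0.291). Without the 5 libraries, which leaves a single palbociclib 24 h library, the changes were 0.86 for CCNA2 and −0.42 for CDK2.

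The E cyclins were compared with each other through the log2 ratio of CCNE2 to CCNE1 in each library (log2 CPM with a prior count of 2, not corrected for length). In DMSO the mean ratio at 9, 12, 15 and 24 h was −0.37, −0.14, −0.06 and −0.58. With palbociclib it was −2.11, −2.84, −2.80 and −3.34. No palbociclib library reached a DMSO library of its own time, and the palbociclib ratio was lower by 1.74, 2.69, 2.74 and 2.76 on the log2 scale at 9, 12, 15 and 24 h. Averaged over the 4 times the difference was −2.48, with p = 4.17e-05 in an exact two-sided permutation test that exchanged treatment within times, the smallest p its 48000 arrangements allow (adjusted over the 2 ratios tested, 8.33e-05). The size of that averaged difference depended on the prior count, at −2.69 with 0.5 and −2.17 with 5. Within 1 time the smallest p is 0.1, or 0.333 at 24 h. In 0 h, DMSO 3 h and DMSO 6 h libraries the mean ratio was −1.58, −2.72 and −2.61. The means of 3 and 6 h lay among the palbociclib means, and the 0 h mean lay above them.

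The ratio of CCNA2 to CCNE1 did not move one way. Palbociclib minus DMSO was 0.81 at 9 h, so the ratio was higher with the drug, and −0.81, −2.13 and −4.97 at the later times, and the libraries overlapped at none of the 4 times. In DMSO the ratio climbed from −1.46 at 9 h to 3.57 at 24 h, while with palbociclib it went from −0.65 at 9 h to −1.40 at 24 h. The mean difference over times was −1.77 (exact two-sided permutation p = 0.0095, adjusted 0.0095), and it rested on 24 h: without that time it was −0.71 (exact permutation p = 0.0570).

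**Figure D4:**
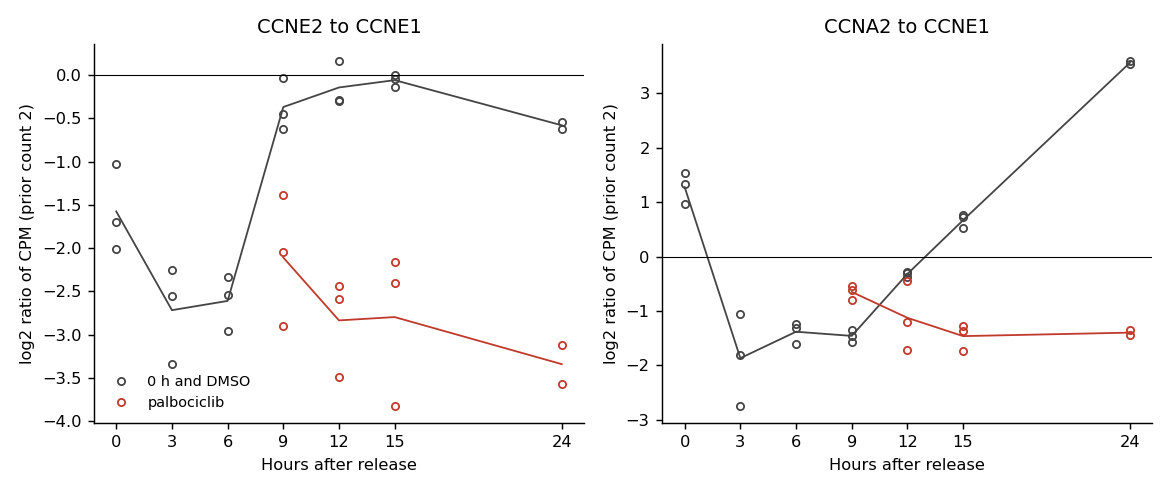
Log2 ratio of CPM (prior count 2) of CCNE2 to CCNE1 (left) and CCNA2 to CCNE1 (right) against hours after release, 1 point per library and lines through group means. With palbociclib (red) the CCNE2 to CCNE1 ratio lies between −3.82 and −1.39, below the DMSO libraries of the same times, and the CCNA2 to CCNE1 ratio crosses from above DMSO at 9 h to below it later.

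Levels of different genes were compared per kilobase of exonic bases not shared with other genes. This length does not correct for dropped reads that lay only partly in shared bases. In starved cells CDK2 led with 3.82 ± 0.460 CPM per kilobase, followed by CCNA2 (2.76 ± 0.364), CCNE1 (1.12 ± 0.269), CDC25A (0.736 ± 0.199) and CCNE2 (0.314 ± 0.0668). At DMSO 6 h CDK2 (5.97 ± 0.673) stood above CDC25A (2.44 ± 0.335) and CCNE1 (1.27 ± 0.0385), and CCNA2 was down at 0.459 ± 0.0556. At DMSO 15 h CDK2 had 20.1 ± 1.27, and CDC25A (13.6 ± 1.11) and CCNA2 (13.4 ± 1.84) differed by less than their SD, while CCNE1 (8.36 ± 0.520) and CCNE2 (7.43 ± 0.822) differed by a little more than theirs. By DMSO 24 h CCNA2 led with 70.1 ± 2.46 CPM per kilobase against 15.1 ± 0.0934 for CDK2. At palbociclib 24 h the order was CDK2 (5.58 ± 0.617), CCNE1 (3.08 ± 0.164), CDC25A (2.71 ± 0.173), CCNA2 (1.14 ± 0.124) and CCNE2 (0.239 ± 0.0478).

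A list of 46 other genes of the CDK2 pathway, sorted by role, was read beside the members, and all 46 were tested. The list was chosen with earlier results of these data known. In the order of the 4 times, palbociclib lowered 15, 22, 28 and 28 of them and raised 0, 1, 3 and 2. Of all genes tested, 1.08%, 4.81%, 8.79% and 12.3% were called lower and 0.114%, 0.830%, 2.15% and 5.76% higher. The 1 raised at 12 h became 0 without DMSO 12 h replicate 2 or 3 or palbociclib 12 h replicate 2 or 3, and the 2 raised at 24 h became 0 without DMSO 24 h replicate 3 and 1 without DMSO 24 h replicate 1 or either palbociclib 24 h library. The median log2 fold change over the list was −0.12, −0.22, −0.43 and −0.87, against 0.0044, 0.0053, 0.0058 and 0.015 over all genes tested. All 4 listed CDK2 substrates were lower at each of the 4 times, and at 9 h these included CDC6, which loads the replicative helicase (14.7 ± 2.13 CPM in DMSO and 0.760 ± 0.0706 with palbociclib, −4.27 ± 0.20), and MCM2, a subunit of that helicase (−1.68 ± 0.10). None of the 5 genes for cyclin E degradation was called at any time, among them FBXW7, the receptor that selects cyclin E for degradation (−0.03 to 0.06). Most of all genes tested were not called at these times either, so this count says little about the role.

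The listed inhibitory kinases, WEE1 and PKMYT1, were both lower with palbociclib at all 4 times. The transcripts of the activating phosphatase and of these kinases thus moved in the same direction. WEE1 went from 21.5 ± 1.15 CPM in DMSO to 4.92 ± 0.606 at 9 h (−2.15 ± 0.16, adjusted p = 2.1e-11) and from 61.8 ± 4.51 to 7.36 ± 1.38 at 24 h (−3.09 ± 0.18). PKMYT1 went from 49.0 ± 5.59 to 0.995 ± 0.427 CPM at 15 h (−5.63 ± 0.18, adjusted p = 5.4e-22), with 31.6% of its exonic bases shared with other genes. CDC25B and CDC25C, relatives of CDC25A that act mainly at mitosis, were not called at 9 h, and both were lower at 24 h (−1.51 ± 0.09 and −6.29 ± 0.30). E2F1, the transcription factor released from the retinoblastoma protein, was 9.10 ± 0.890 CPM in DMSO and 0.452 ± 0.0924 with palbociclib at 9 h (−4.34 ± 0.22).

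The 3 CDK2 inhibitor genes were not called at 9 or 12 h, like most of all genes tested. CDKN1A, which encodes p21, was lower with palbociclib at 15 h (−0.38 ± 0.08, adjusted p = 0.00050) and 24 h (−0.44 ± 0.09, adjusted p = 0.00085). CDKN1B, which encodes p27, was lower at 24 h (19.05 ± 0.639 CPM against 36.2 ± 0.976 in DMSO, −0.93 ± 0.12, adjusted p = 4.4e-07). SKP2, which directs p27 to degradation, was lower at every time (−0.91 to −0.29). CCND1, cyclin D1, was not called at 9 or 12 h and was higher at 15 h (0.31 ± 0.10, adjusted p = 0.0297) and 24 h (0.41 ± 0.12, adjusted p = 0.0134). CCNA1, the other A-type cyclin, was not called at any of the 4 times (−0.04 to 0.25), in contrast to CCNA2, though the difference between the 2 genes was not tested.

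After 3 h of release with DMSO, 18 listed genes were called above their 0 h level and 14 below it, which became 26 and 14 by 9 h, then 41 and 5 by 24 h. In the same order of times, all genes tested were called higher in 27.8%, 35.3% and 36.7% and lower in 34.4%, 39.9% and 38.9%, so the list's counts at 3 h lie near these shares. The median log2 fold change over the list was 0.032, 0.36 and 1.24 at these times, against −0.10, −0.094 and −0.095 over all genes. At 3 h CCNA1 rose from 0.563 ± 0.392 to 10.7 ± 1.80 CPM (4.23 ± 0.24, adjusted p = 4.0e-16) as CCNA2 fell. CCND1 rose by 1.86 ± 0.10 and CDKN1A by 1.63 ± 0.08, while CDKN1B fell from 64.45 ± 1.57 to 16.5 ± 2.25 CPM (−1.96 ± 0.10) at the time of the early CCNE1 peak. At 9 h, when CCNE2 had risen, E2F1 was 3.19 ± 0.19 above 0 h, whereas at 3 h it was not called (−0.35 ± 0.31, adjusted p = 0.344). Other E2F genes went differently: E2F3 (1.31) and E2F4 (1.18) were already higher at 3 h, and E2F2 was lower at 9 h (−1.05). Of the 10 pocket protein and E2F genes listed, 3 were higher and 3 lower at 3 h, and 6 higher and 2 lower at 9 h. CDC25B was lower than at 0 h at 9 h (−2.58 ± 0.08) while CDC25A was higher.

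**Figure D5:**
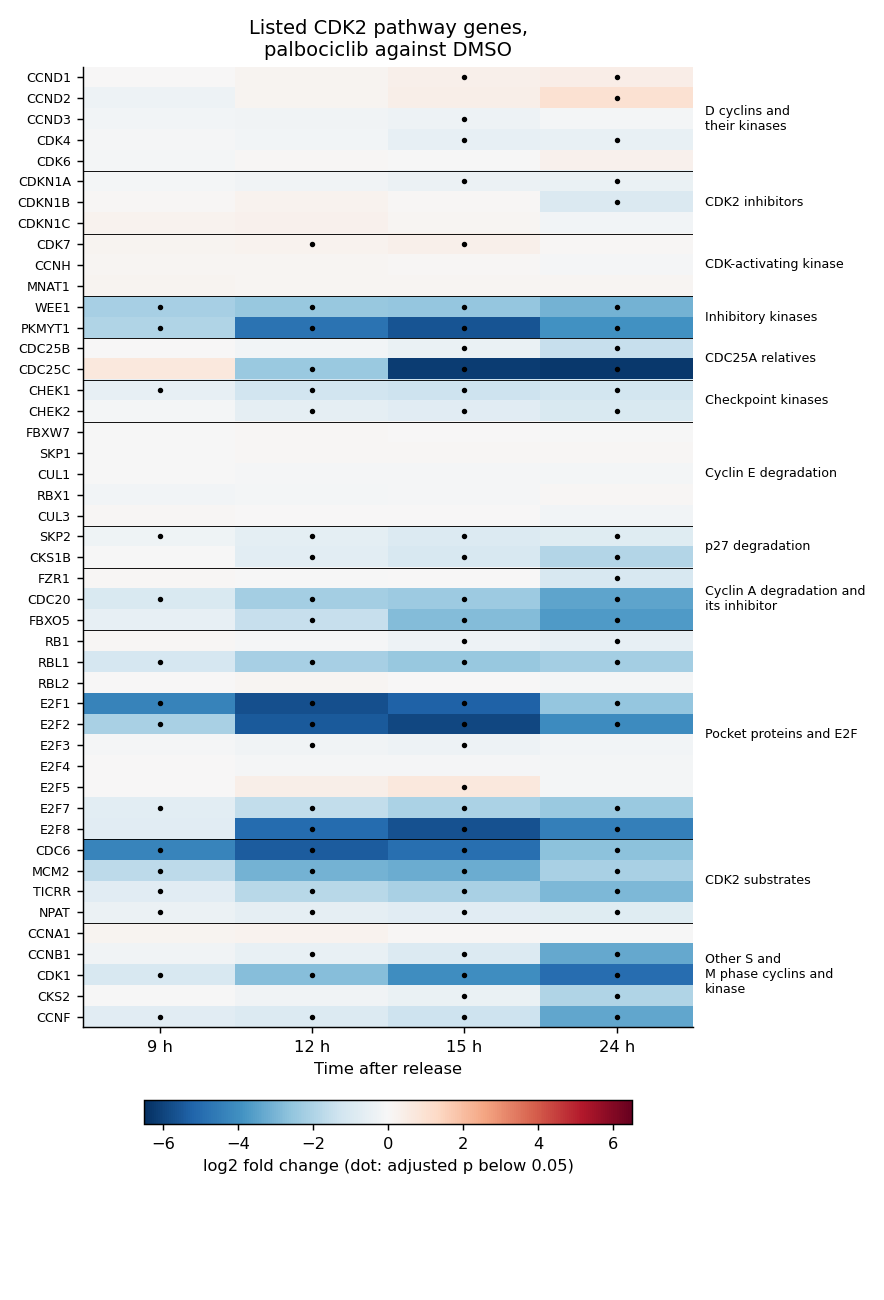
Log2 fold change of palbociclib against DMSO for the 46 listed CDK2 pathway genes (rows, grouped by role) at 9, 12, 15 and 24 h (columns), blue for lower and red for higher, with a dot at an adjusted p below 0.05. The inhibitory kinases, the CDK2 substrates, E2F1 and E2F2 are lower from 9 h, and the rows for cyclin E degradation hold no dot.

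Profiles over the 31 libraries were compared by Pearson correlation of log2 CPM, given as a description because libraries of a group share time and treatment. Among the members, CDK2 and CDC25A were closest (r = 0.933), CCNE1 and CDC25A had r = 0.903, and CCNA2 was the least like the others (0.695 to 0.776). Of 11150 candidate genes, those most like CCNE1 were ORC6 (0.918), MCM4 (0.917) and STRIP2 (0.915). WDR76 (0.965), PSMC3IP (0.959) and FAM111B (0.951) were most like CCNE2. For CCNA2 they were CKAP2L (0.983), KIF11 (0.982) and PRC1 (0.974), for CDK2 DCLRE1B (0.967), RFC2 (0.960) and GINS2 (0.960), and for CDC25A RFWD3 (0.949), CLSPN (0.946) and FANCA (0.943). Over the 11 group means, 2 of the 3 remained in the top 3 for CCNE1, CCNE2 and CCNA2, all 3 for CDK2 and none for CDC25A.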

How the data were processed

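Poly(A) RNA was measured in 31 libraries of 11 groups taken from the labels. Per the labels' protocols, libraries came from a stranded mRNA kit read as 75 bp single ends. The submitters' processing notes name TopHat2 2.1.1 with Bowtie2 2.2.9, FastQC 0.11.3 and Subread 1.5.1. What the authors deposited are unnormalised counts of reads over the exons of each gene name (GENCODE 25), made with featureCounts 1.5.1 per the file headers, whose command sets no option for strand, multi-mapping or overlap. A series table with the same counts was not used. Library totals were 10342358 to 20878364 counts, and their depth sets the precision of low genes such as CCNE2.

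Counts were fitted in R 4.3.3 with edgeR 4.0.16: filterByExpr by group, TMM factors (0.927 to 1.08), 1 quasi-likelihood fit of 11 groups with 20 residual degrees of freedom, and 25 contrasts, each adjusted over 15787 genes at a threshold of 0.05. SEs were obtained by dividing each log2 fold change, without its sign, by the root of its F statistic, and intervals are 95%. The common biological coefficient of variation was 6.55%. Ratios of 2 genes were tested with exact permutations within times. The fit was tested on simulated counts. Alternatives were DESeq2 1.42.0, other scalings, no filter, fewer libraries and a replicate block.

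The members and lists were chosen with earlier results of these data known. Named genes were the 5 members, 8 pathway genes (CCND1, CDKN1A, CDKN1B, E2F1, SKP2, FBXW7, WEE1 and CDC6), up to 2 called genes by smallest p per role and direction, genes that overlap a member, and the 3 genes most like each member among symbols whose log2 CPM averaged 1 or more. CDC25B, CDC25C, PKMYT1, MCM2, CCNA1 and E2F2 were named under this rule in at least 1 comparison, and their values in other comparisons were added.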

Additional observations from a re-analysis of the deposited data

Results flagged for a closer look

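The palbociclib difference changed between times in 8 member comparisons, by an interaction in edgeR's quasi-likelihood fit. Between 9 and 12 h it changed by −1.70 for CCNE2 (adjusted p = 0.0369), −2.22 for CCNA2 (adjusted p = 2.46e-05), −0.80 for CDK2 (adjusted p = 1.12e-05) and −1.68 for CDC25A (adjusted p = 4.74e-07). Of all genes, 1.72% were called lower and 0.0190% higher in this test. The CCNE2 call was fragile and was lost in 8 single omissions. It was also lost without the libraries that scored with the opposite sign on the within-group axis (−1.75, adjusted p = 0.243). Between 12 and 15 h it changed by −1.70 for CCNA2 (adjusted p = 0.00136), with 0.633% of all genes called lower and 0.00633% higher. This CCNA2 call was lost without the same libraries (−1.41, adjusted p = 0.154). From 15 to 24 h it changed by 1.20 for CCNE1 (adjusted p = 0.00125), −1.57 for CCNA2 (adjusted p = 0.00135) and 0.97 for CDC25A (adjusted p = 0.00249). Of all genes, 1.06% were called higher and 1.92% lower. Without the same libraries the changes were 1.07 for CCNE1, −1.56 for CCNA2 and 0.93 for CDC25A. Each 24 h group then held a single library, so that fit cannot decide these calls. For CCNE1 the change from 15 to 24 h went with a fall in DMSO and a rise in palbociclib. For CDC25A it went with no called change in DMSO and a rise in palbociclib.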

How the results depend on the processing

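Of 125 values (5 members in 25 contrasts), DESeq2 and the replicate block each kept the direction and the side of the threshold of all 125, DESeq2's size factors of 124, library totals of 122, no filter of 123, and fits of only the contrast's libraries of 116. Leaving out 1 library at a time kept 750 of 800 values, and leaving out the 5 libraries kept 108 of 125. Scaling by library totals put the all-gene median log2 fold change against 0 h at −0.27, −0.17 and −0.21 for DMSO 3, 15 and 24 h (−0.10, −0.056 and −0.095 with TMM factors) and from DMSO 3 to 6 h at 0.074 (−0.028), and with that scaling CDK2 (0.19, adjusted p = 0.0404) and CDC25A (0.39, adjusted p = 0.0172) were called higher from DMSO 3 to 6 h and CCNA2 was not called (−0.59, adjusted p = 0.0821). The replicate numbers did not pair DMSO with palbociclib libraries: deviations of 10 same-numbered pairs correlated at −0.249 to 0.297, 2 of them above 0.1, and 2 of 9 DMSO libraries correlated best with their own number. Among 0 h and DMSO 3 to 15 h, same-numbered libraries did lean together (45 pairs at 0.0024 to 0.42, 30 of them above 0.1, against −0.44 to 0.16 for 90 pairs of unlike number), a hint from the data that the labels do not explain. A replicate block in those libraries alone, chosen after seeing the data, kept 43 of 45 values: from DMSO 3 to 6 h CDC25A was called (0.30, adjusted p = 0.0389) and CCNA2 was not (−0.68, adjusted p = 0.0589), as without the block in those libraries (−0.69, adjusted p = 0.0569). That block raised the genes called from DMSO 9 to 12 h from 1520 higher and 778 lower to 2373 and 1356, and from 12 to 15 h from 739 and 277 to 1379 and 684. For the 2 ratios, a separate test exchanged treatment within same-numbered DMSO and palbociclib libraries, although the numbers did not pair them. The CCNE2 to CCNE1 difference was −2.48 (exact permutation p = 0.000977, the smallest that test allows). The CCNA2 to CCNE1 difference was −1.77 (exact permutation p = 0.0371).

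The number of members lower at DMSO 6 h than at 0 h was 1 in place of 2 with only those libraries, and 1 to 2 over the single omissions. The CCNA2 to CCNE1 ratio difference was −0.709 without 24 h (exact permutation p = 0.0570) and −1.86 to −1.72 on leaving out a replicate number, with exact permutation p = 0.0972, 0.0262 and 0.0787 without replicates 1, 2 and 3. Signs turned only for values that were not called. CCNA2 from palbociclib 9 to 12 h was −0.0070 with no filter and −0.26 without the 5 libraries. CCNE1 at palbociclib 9 h against 0 h was 0.037 with only those libraries. Without the 5 libraries, CCNA2 and CDK2 from palbociclib 12 to 15 h were 0.22 and −0.032, and the change of the CDK2 difference from 15 to 24 h was −0.0061. Over single omissions the ranges that crossed 0 were −0.13 to 0.48 for CCNE2 at DMSO 3 h against 0 h, −0.19 to 0.16 for CCNE1 at palbociclib 9 h against 0 h, −0.021 to 0.15 for CDK2 from DMSO 3 to 6 h, −0.24 to 0.17 for CCNA2 from palbociclib 9 to 12 h and −0.24 to 0.17 from 12 to 15 h, −0.12 to 0.51 for CCNE2 from palbociclib 15 to 24 h, and −0.031 to 0.22 for the change of the CDK2 difference from 15 to 24 h. Where an omission left 1 library in a 24 h group, it was assumed to vary like the other groups. Depth limits CCNE2, which had 3 to 16 counts in palbociclib libraries.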
